A study of Mus musculus with 30 samples.

Results

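The genes described here encode 9 secreted antagonists of BMP and WNT signalling that were measured across CRY2 variants and cell densities in mouse embryonic fibroblasts. The rule is a list of names, set with earlier results of these data known: Grem1, Nog, Chrdl1 and Chrdl2 as the 4 BMP antagonists, and Frzb, Sfrp1, Sfrp2, Dkk2 and Dkk3 as the 5 WNT antagonists. All 9 are among the 34724 rows of the deposited table, and 8 of them are among the 14093 genes that passed the filter of at least 1 TPM (transcript abundance scaled to a fixed sum) in at least 3 libraries. Dkk2 did not pass it. Every fibroblast in the study lacked Cry2 (Cry2-/-) and stably carried c-MYC, an oncogenic transcription factor. To this were added the CRY2 missense variant D325H, S510L or F428D, wild-type CRY2 (WT) or an empty vector (EV). CRY2 is a transcriptional repressor of the circadian clock. The study asked how its missense variants bear on P53 and cell growth. Each construct was plated at high density (500 cells per well, harvested on day 11) or low density (150 cells per well, harvested on day 14), in 3% oxygen and 15% serum. Density is therefore tied to time in culture. The 10 groups held 3 biological replicates each, 30 libraries in all, and each replicate combined 2 wells. Nothing in the labels tells if a construct's lines had separate origins. A difference between constructs may thus be one between cell lines, and the p-values here speak only of the spread among these replicates, which may be technical.

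The 30 libraries held 12182 to 12655 genes at 1 TPM or more, and since TPM holds no depth, counting error is unknown. Genes above 0 were fewer in F428D high 2 (15910) and D325H high 3 (16258) than in the median library (19002.5). Cry2 was lower with S510L than with WT, with log2(TPM + 1) differences of -1.39 for the high plating (limma, adjusted p = 0.0116) and -1.80 for the low one (0.000539). Trp53, the P53 gene, stood at 15.4 to 131 TPM in D325H low and 24.7 to 80.3 TPM in S510L low, against 240 to 330 TPM in WT low. The part of either gene in the differences below was not tested. As a check of the labelled cell type, 8 fibroblast markers such as Col1a1 and Vim summed to 7943 to 16708 TPM per library. All 5 endothelial markers stayed under 1 TPM in every library, as did the leukocyte genes Ptprc, Adgre1 and Csf1r, while Cd68 stood at 1.21 to 6.76 TPM. Some markers of other types were detected: Col2a1 (cartilage) reached 3878 TPM, Alpl (bone) 192 TPM and Acta1 (skeletal muscle) 110.5 TPM. Krt18 (epithelial) reached 89.9 TPM, Tubb3 (neural) 41.4 TPM and Fabp4 (adipocyte) 36.8 TPM.

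BMPs are ligands of the TGF-beta family that act through serine/threonine kinase receptors and SMAD proteins, and their target genes include the Id genes. WNT ligands bind Frizzled receptors with LRP co-receptors, and the canonical branch stabilises beta-catenin. Both pathways are held in check outside the cell: gremlin, noggin and the chordin-like proteins bind BMPs, the secreted Frizzled-related proteins (Frzb and the Sfrp proteins) carry a Frizzled-like domain that binds WNTs, and Dickkopf proteins such as DKK2 bind the LRP co-receptors. In the developing limb and skeleton these antagonists shape where cartilage, bone and joints form.

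RefSeq promoter records (build GRCm38.p6) matched 4 of the 9 genes. The 250 bases before the RefSeq start are shown for the 3 of them that differed between constructs, Grem1 and Frzb, which were highest in the same S510L libraries, and Sfrp2, which was highest with D325H.
Grem1 (chr2:113758649-113758898, minus strand): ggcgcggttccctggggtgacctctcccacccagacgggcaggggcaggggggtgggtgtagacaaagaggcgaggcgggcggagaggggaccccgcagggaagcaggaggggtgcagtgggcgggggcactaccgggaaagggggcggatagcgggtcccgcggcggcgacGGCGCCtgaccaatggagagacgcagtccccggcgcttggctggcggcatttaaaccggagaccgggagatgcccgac
Frzb (chr2:80447397-80447646, minus strand): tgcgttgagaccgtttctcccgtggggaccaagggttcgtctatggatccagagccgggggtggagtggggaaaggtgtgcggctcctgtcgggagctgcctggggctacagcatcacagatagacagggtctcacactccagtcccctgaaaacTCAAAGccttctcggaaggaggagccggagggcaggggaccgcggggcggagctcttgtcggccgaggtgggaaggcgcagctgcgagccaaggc
Sfrp2 (chr3:83766071-83766320, plus strand): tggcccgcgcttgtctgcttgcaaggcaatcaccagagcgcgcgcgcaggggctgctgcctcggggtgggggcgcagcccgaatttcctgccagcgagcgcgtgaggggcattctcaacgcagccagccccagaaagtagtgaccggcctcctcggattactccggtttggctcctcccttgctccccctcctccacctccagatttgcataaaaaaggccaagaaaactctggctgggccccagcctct
Capitals mark matches, on either strand, to the E-box CACGTG, the BMP-responsive motif GGCGCC, the TCF/LEF core CTTTGA (read as TCAAAG on the other strand) and the TATA box TATAAA. The motifs do not overlap here. Grem1 held 1 GGCGCC, 78 bases before its RefSeq start, and Frzb held 1 CTTTGA match, 95 bases before its RefSeq start. The 2 annotations differ for Frzb: GENCODE M21 lets the gene reach to 80447625. Most of the Frzb window, with its match, thus lies inside the gene as GENCODE gives it. Sfrp2 held none of the 4 letter strings. Among 32851 promoter windows of the same length, CACGTG was found in 6.02%, GGCGCC in 9.59%, CTTTGA in 13.8% and TATAAA in 12.4%. The 3 windows were rich in G and C, at 72% (Grem1), 64.4% (Frzb) and 63.6% (Sfrp2), against a median of 52.4% over all windows. A match is a description of these letters, not of a bound site.

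The levels of the 9 genes spanned a wide range on the TPM scale, which is corrected for transcript length. Sfrp2 was by far the most abundant. Its mean lay at the 99.3 percentile of the tested genes, and it made up 61.2% (F428D low 2) to 98.1% (D325H high 2) of the summed TPM of the 9 genes. Dkk3 and Grem1 followed at lower levels, and Dkk2 and Chrdl2 were near or under 1 TPM in most libraries.

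**Figure D1:**
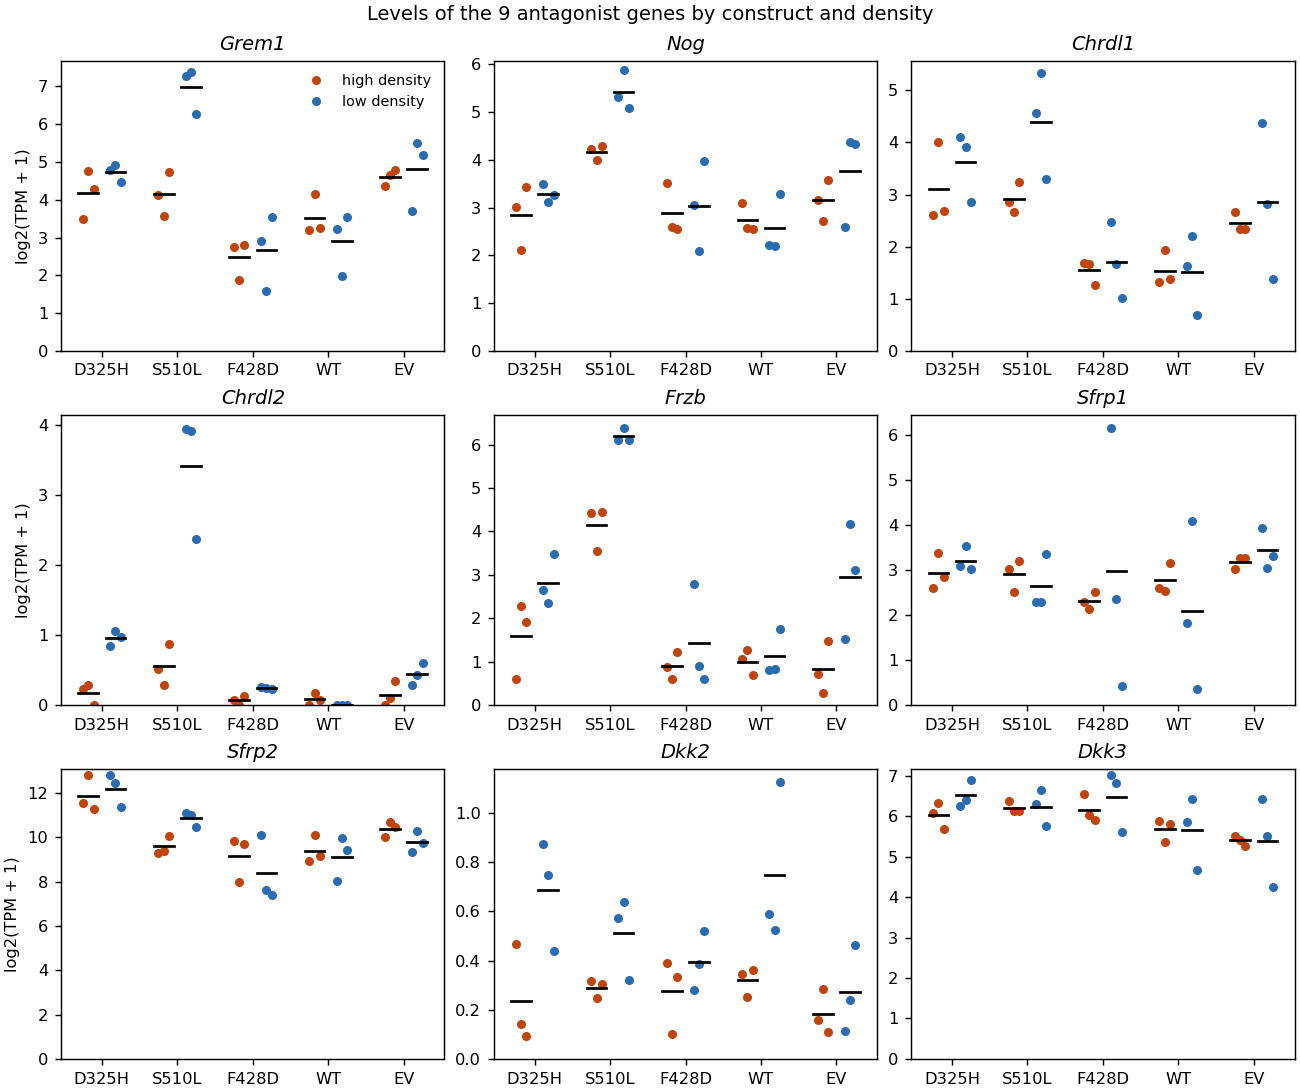
Level of each of the 9 antagonist genes as log2(TPM + 1) on the vertical axis, by construct on the horizontal axis; each point is 1 library, orange for high and blue for low density, and the bar is the mean of 3. The 3 S510L low libraries stand above every other library for Frzb and for Grem1, at 68.1 to 82.2 TPM and 76.1 to 166 TPM, and Sfrp2 is highest in D325H.

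Grem1 (chromosome 2, 113746164 to 113758646, minus strand, GRCm38, GENCODE M21, protein coding) encodes gremlin 1, which binds BMPs and keeps them from their receptors. At low density it stood at 26.5, 29.5 and 21.3 TPM in D325H and at 155, 166 and 76.1 TPM in S510L. F428D gave 6.44, 1.99 and 10.7 TPM, WT 8.32, 2.94 and 10.7 TPM, and EV 12.1, 44.6 and 35.7 TPM. All 3 S510L libraries lay above all others at low density, and the D325H libraries lay above those of WT but among those of EV. Set against WT, Grem1 rose with S510L by 4.06 ± 0.50 on the log2(TPM + 1) scale (difference ± SE; limma, BH-adjusted p = 6.04e-06) and with D325H by 1.82 ± 0.50 (adjusted p = 0.00976, or 0.056 without WT low 2). Such a difference understates the change of genes with low TPM. In bulk RNA, more cells that express a gene and more RNA per cell cannot be told apart.

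At high density Grem1 was spread less. It measured 10.2, 26.3 and 18.5 TPM in D325H, 16.6, 11.0 and 25.7 TPM in S510L and 5.77, 2.67 and 5.91 TPM in F428D, against 8.11, 16.7 and 8.55 TPM in WT and 19.5, 24.3 and 26.7 TPM in EV. The F428D libraries lay below every other library at high density. Grem1 was not called against WT with D325H or with S510L (0.62, adjusted p = 0.496), but F428D was lower than EV, by -2.13 ± 0.50 (limma, adjusted p = 0.0361). That call was lost with quantile normalization (adjusted p = 0.0681), without the low-value filter (0.0518), or when any of 5 of the 6 libraries was left out (0.0643 to 0.26).

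Nog (chromosome 11, 89300638 to 89302332, minus strand) encodes noggin, a high-affinity BMP trap. At low density it stood at 10.2, 7.71 and 8.68 TPM in D325H and 38.7, 57.9 and 33.2 TPM in S510L. The other groups held 7.37, 3.27 and 14.7 TPM (F428D), 3.67, 3.61 and 8.68 TPM (WT) and 5.06, 19.8 and 19.2 TPM (EV). Again the S510L libraries stood above all others, whereas D325H lay within the range of F428D and EV. The rise with S510L over WT was 2.86 ± 0.46 (limma, adjusted p = 9.58e-05), and D325H against WT was 0.73 (adjusted p = 0.241). At high density S510L held 17.9, 14.9 and 18.6 TPM, against 7.51, 4.98 and 4.91 TPM in WT. The D325H, F428D and EV libraries ranged from 3.35 to 11.0 TPM, all below S510L. The difference of 1.43 ± 0.46 from WT just passed (limma, adjusted p = 0.0495). It did not pass with a pseudocount of 0.1 (0.0566), without the filter (0.0924), with either other scaling (0.089 and 0.113), or without any 1 of the 6 libraries (0.0736 to 0.15).

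Chrdl1 (chromosome X, 143285674 to 143394262, minus strand) encodes chordin-like 1, which binds BMPs through von Willebrand C domains. Its low-density levels were 16.3, 14.2 and 6.21 TPM in D325H and 22.8, 39.2 and 8.88 TPM in S510L. F428D gave 4.53, 2.16 and 1.01 TPM, against 2.10, 3.63 and 0.606 TPM in WT and 19.7, 6.10 and 1.59 TPM in EV. Every D325H and S510L library lay above every WT library, F428D overlapped WT, and EV spread widely enough to overlap all 4 other constructs. Chrdl1 rose by 2.90 ± 0.58 with S510L (limma, adjusted p = 0.000918) and by 2.12 ± 0.58 with D325H (adjusted p = 0.00889) over WT. The D325H call was lost without WT low 3 (0.0552) or D325H low 1 (0.0541). At high density neither difference passed, at 1.56 for D325H (adjusted p = 0.0856) and 1.38 for S510L (adjusted p = 0.141).

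Chrdl2 (chromosome 7, 100006172 to 100034728, plus strand), a chordin-like relative that also binds BMPs, was almost confined to S510L low among these libraries, at 14.4, 14.2 and 4.18 TPM. D325H low followed at 0.791, 1.09 and 0.961 TPM, F428D low at 0.200, 0.182 and 0.175 TPM and EV low at 0.213, 0.347 and 0.521 TPM, and WT low was listed at 0 in all 3 libraries. At low density no construct overlapped another, with S510L at the top and WT at the bottom. At high density no library passed 0.827 TPM (S510L high 3). Only 4 of the 30 libraries held 1 TPM or more, the 3 of S510L low and 1 of D325H low, so Chrdl2 was tested only because of the groups in which it was high. The fitted difference from WT was 3.42 ± 0.26 with S510L (limma, adjusted p = 1.51e-08) and 0.96 ± 0.26 with D325H (adjusted p = 0.00876). As WT was listed at 0, the size of both depends on the pseudocount. No fold is given, and with a pseudocount of 5 the D325H difference was not called (0.235).

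Frzb (chromosome 2, 80411970 to 80447625, minus strand), a secreted Frizzled-related protein first isolated from cartilage, showed the widest separation among the WNT antagonists. At low density S510L held 68.2, 82.2 and 68.1 TPM and D325H 5.24, 4.09 and 10.1 TPM. F428D held 5.87, 0.849 and 0.523 TPM, WT 0.745, 0.781 and 2.34 TPM and EV 1.89, 17.1 and 7.67 TPM. The lowest S510L library thus lay well above EV low 2, the highest library of any other construct at this density. The rise over WT was 5.08 ± 0.56 with S510L (limma, adjusted p = 1.54e-06). With D325H it was 1.70 ± 0.56 (adjusted p = 0.0268), a call lost without the filter (0.0569) and without any 1 of 4 libraries (0.0619 to 0.0971). At high density S510L again stood apart, at 20.6, 10.7 and 20.9 TPM against 1.08, 1.39 and 0.613 TPM in WT. No library of the other high-density groups passed 3.86 TPM (D325H high 2). The high-density rise was 3.14 ± 0.56 (limma, adjusted p = 0.00126), and it stayed called under every alternative setting run and without any 1 library.

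Sfrp2 (chromosome 3, 83766321 to 83774316, plus strand), a secreted Frizzled-related protein of fibroblasts that has been reported both to block and to strengthen WNT signalling, had another order. D325H low led with 7109, 5557 and 2600 TPM, followed by S510L low with 2158, 2066 and 1393 TPM. F428D low held 1111, 196 and 168 TPM, WT low 258, 992 and 677 TPM and EV low 641, 1251 and 843 TPM. The 3 groups without D325H or S510L overlapped one another, and D325H lay above all other constructs at low density. Over WT, Sfrp2 rose by 3.07 ± 0.61 with D325H (limma, adjusted p = 0.000981) and by 1.72 ± 0.61 with S510L (adjusted p = 0.0454). The S510L call was lost in 4 of the alternative settings (0.0503 to 0.0915) and without any 1 of 4 libraries (0.0612 to 0.246). At high density D325H held 2993, 7098 and 2460 TPM against 479, 1094 and 569 TPM in WT, without overlap. S510L high (622, 670 and 1075 TPM) lay within the WT range, at 0.20 with a 95% interval of -1.07 to 1.47. The D325H difference at high density was 2.48 ± 0.61 (limma, adjusted p = 0.0136), and it was lost without D325H high 2 (0.109), WT high 1 (0.0692) or WT high 3 (0.0595). Markers of several cell types moved in the comparison of D325H low with WT low as well. Of these, 6 of 8 cartilage and 5 of 8 fibroblast markers (Col3a1 by 3.34 and Col1a1 by 2.52) were called higher, beside 14.8% of all genes. The fibroblast markers Vim (-0.19) and Fn1 (-0.58) had the other sign and were not called. Of the adipocyte and neural markers, 2 of 4 each were called lower, beside 14.1% of all genes. The fibroblast markers summed to 13640 to 16708 TPM in D325H low, against 8972 to 11728 TPM in WT low. In a fit of the 6 libraries alone 3 cartilage, 2 fibroblast, 0 adipocyte and 0 neural markers were called. The part of these genes in the Sfrp2 difference was not tested.

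The other 3 WNT antagonists showed no called difference in any of the 29 comparisons. Sfrp1 (chromosome 8, 23411502 to 23449632, plus strand), a secreted Frizzled-related protein like Sfrp2, varied widely within groups. D325H low held 7.06 to 10.5 TPM, S510L low 3.86 to 9.29 TPM and F428D low 70.0, 4.13 and 0.331 TPM, against 2.52, 15.9 and 0.282 TPM in WT low. Its replicates under one construct thus spread further than the construct means. Dkk3 (chromosome 7, 112116017 to 112159057, minus strand) is the divergent Dickkopf, whose role in WNT signalling differs between cell types. It ran from 18.1 TPM (EV low 3) to 129 TPM (F428D low 1), with overlap between all neighbouring groups in the order of means. Its smallest adjusted p against WT or EV was 0.0661, for D325H low against EV low (1.13 ± 0.43). Dkk2 (chromosome 3, 132085292 to 132180304, plus strand), an LRP-binding Dickkopf, ran from 0.0669 TPM (D325H high 3) to 1.18 TPM (WT low 3), with a median of 0.264 TPM, and was too low to test.

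Compared with WT at low density, S510L carried more of 6 of the 8 tested antagonists and less of none: Frzb, Grem1, Chrdl2, Chrdl1, Nog and Sfrp2 rose. Of all 14093 tested genes, 15.0% were called higher in this comparison. Chrdl2 had to differ to be tested at all. Without it the count was 5 of 7 and the median difference 2.86, against a median of 0.0372 over all genes. D325H carried more of 5 of the 8, Sfrp2, Chrdl1, Grem1, Frzb and Chrdl2, where 14.8% of all genes were called higher. Without Chrdl2 the count was 4 of 7 and the median 1.70, against -0.00383 over all genes. F428D had 0 of the 8 called, and 0 at an unadjusted p under 0.05 (6.46% of all genes), in a comparison where 0.0142% of all genes were called, and its adjusted p ran from 0.779 to 0.97. All 3 comparisons used the same WT libraries. When the 6 libraries of a comparison were fitted alone, D325H kept 1 of its 5 calls, that of Chrdl2, and thus 0 of the other 4.

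At high density fewer passed. S510L had 2 of 8 antagonists called higher than WT, Frzb and Nog (7.39% of all genes called higher), and D325H had 1, Sfrp2 (5.46%). F428D had 0 called (0.0639%), with 1, Grem1, at an unadjusted p under 0.05, as were 5.48% of all genes (-1.05 ± 0.50, limma adjusted p = 0.908). Of the 3 calls with S510L or D325H, that of Frzb was the one kept in every alternative setting and without any 1 library.

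**Figure D2:**
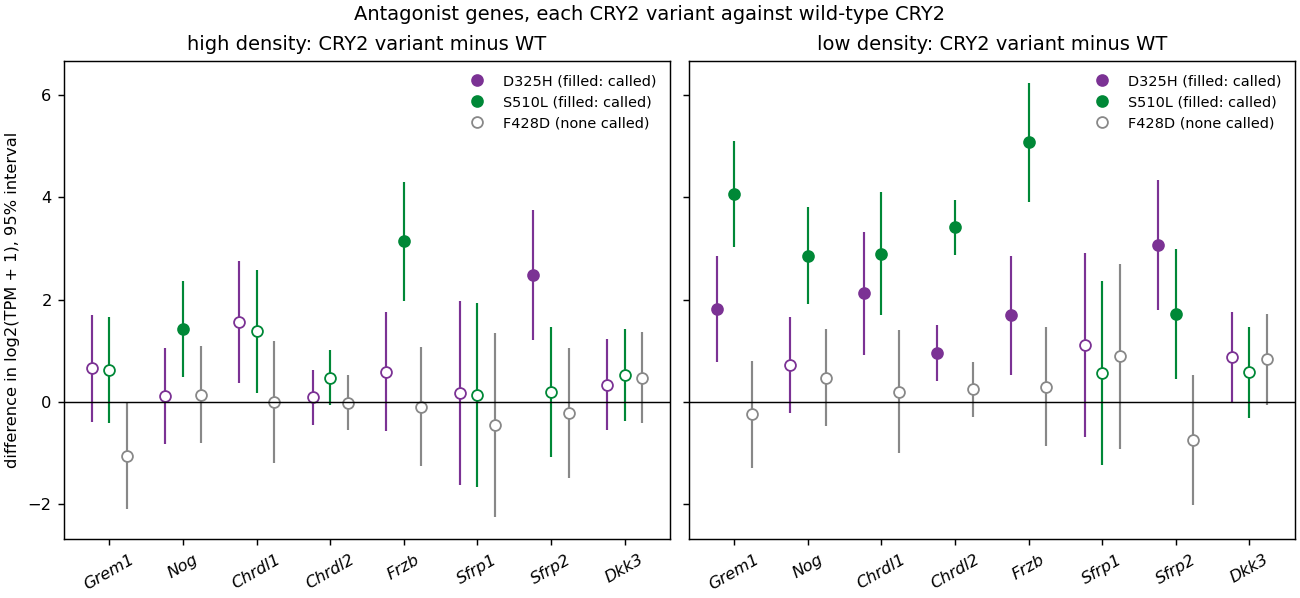
Difference from WT in log2(TPM + 1) for the 8 tested antagonist genes (horizontal axis) with D325H, S510L and F428D, at high (left) and low density (right); bars are 95% intervals of the limma fit, and filled points have an adjusted p under 0.05. At low density S510L is called for 6 genes, with Frzb at 5.08 at the top, and F428D for none.

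Wild-type CRY2 itself was set against EV to ask what restoring CRY2 did to these genes. None of the 8 was called at low density, where 0.305% of all genes were (43 genes), or at high density, where 0.0284% were. At low density 7 of the 8 were lower in WT and 4 had an unadjusted p under 0.05, as did 7.29% of all genes. Grem1 was at -1.89 ± 0.50 (limma, adjusted p = 0.143) and Frzb at -1.81 ± 0.56 (adjusted p = 0.26), and 2 of the 8 passed when EV low 1 was left out. At high density 1 of the 8 had an unadjusted p under 0.05, as did 6.95% of all genes.

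The same variant libraries were also set against EV. S510L low had 4 of 8 called higher than EV low (8.95% of all genes): Chrdl2 (2.98), Frzb (3.26 ± 0.56, limma adjusted p = 0.000713), Grem1 (2.17 ± 0.50, 0.007) and Nog (1.66 ± 0.46, 0.0189). Without Chrdl2, tested only because of the groups in which it was high, the count was 3 of 7. The Nog call was lost without EV low 1 (0.138), S510L low 1 (0.0531) or S510L low 2 (0.107), and the Grem1 call without EV low 1 (0.0523). D325H low had 1, Sfrp2 (2.41 ± 0.61, limma adjusted p = 0.00952, lost without D325H low 1 at 0.0753), where 9.75% of all genes were called higher. F428D low had 0 (0.142%), with 4 at an unadjusted p under 0.05 (13% of all genes), and its Grem1 was at -2.13 (adjusted p = 0.0824). At high density S510L had 1 higher, Frzb (3.32, limma adjusted p = 0.000939), where 4.53% of all genes were called higher, F428D had 1 lower, Grem1 (1.44%), and D325H had 0 (0.71%), with 1 at an unadjusted p under 0.05 (16.2% of all genes), Sfrp2 at 1.49 (adjusted p = 0.23).

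The variants were also compared with one another, a choice made after the values had been seen. At low density S510L exceeded D325H for 4 of 8 genes, where 4.8% of all genes were called higher: Frzb (3.38, limma adjusted p = 0.000875), Chrdl2 (2.46, 7.05e-06), Grem1 (2.25, 0.00852) and Nog (2.13, 0.00609). Chrdl2 passed the filter only through these 2 groups, and without it the count was 3 of 7. For Chrdl1 (0.77, adjusted p = 0.455) and Sfrp2 (-1.35, 0.188) no difference between the 2 variants was called. The Grem1 call was lost without S510L low 2 (0.0533). At high density S510L exceeded D325H for Frzb (2.55, limma adjusted p = 0.00723) and lay below it for Sfrp2 (-2.29 ± 0.61, 0.0224), so 2 of 8 were called, beside 9.71% of all genes. The Sfrp2 call was lost without D325H high 2 (0.134), S510L high 1 (0.0886) or S510L high 2 (0.103). Against F428D, S510L had 6 of 8 called higher at low density (14.1% of all genes), or 5 of 7 without Chrdl2, and 2 at high density (15.1%). D325H had 3 at low density (10.8%) and 2 at high density (8%). Those last 2 were Sfrp2 (2.70, limma adjusted p = 0.00772) and Grem1 (1.71, 0.0307). Both were lost without F428D high 2 (0.0733 for Sfrp2 and 0.169 for Grem1), the library with the fewest genes above 0, and without D325H high 2 (0.0666 and 0.16), and the Grem1 call also without D325H high 3 (0.0666). The S510L high call of Grem1 over F428D (1.68, limma adjusted p = 0.0243) was lost without F428D high 2 (0.126), S510L high 1 (0.0613) or S510L high 3 (0.0946), and that of Frzb (3.24, 0.000611) was not lost. At low density, Grem1 in D325H over F428D (2.06, 0.00708) was lost without F428D low 2 (0.0679), and Chrdl1 (1.92, 0.0246) without any 1 of 4 libraries (0.0746 to 0.116).

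**Figure D3:**
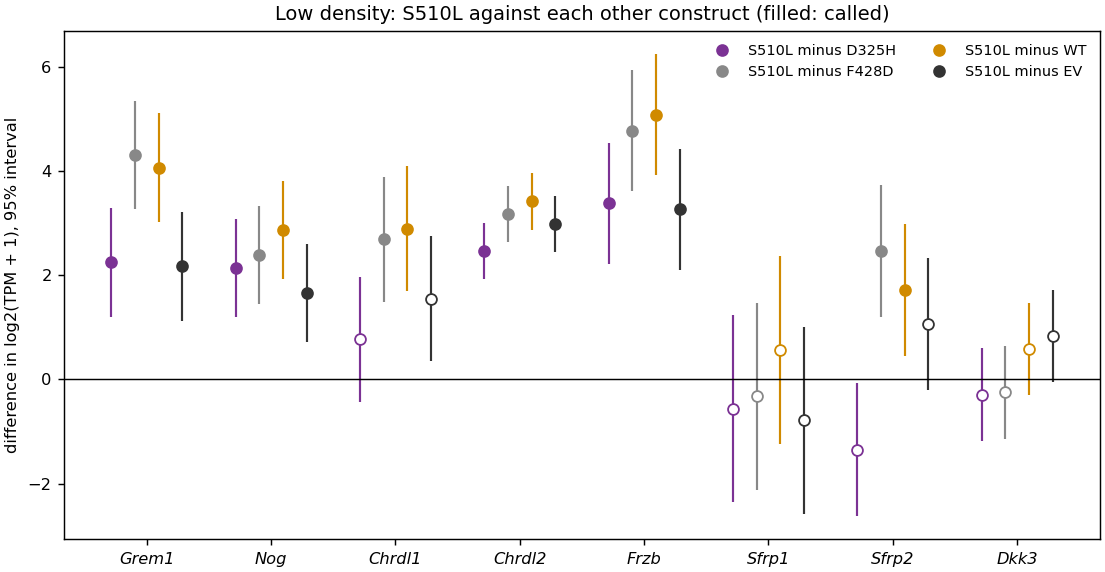
Difference of S510L low from each other construct at low density in log2(TPM + 1), for the 8 tested antagonist genes on the horizontal axis; bars are 95% intervals of the limma fit, and filled points have an adjusted p under 0.05. Grem1, Nog, Chrdl2 and Frzb are above 0 and called against all 4 constructs, while Sfrp2 lies below 0 against D325H (-1.35) and Sfrp1 and Dkk3 cross 0 throughout.

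High density was then set against low density within each construct. S510L was the construct in which antagonists were called: Grem1 was lower at high density (17.8 ± 7.42 TPM) than at low (132 ± 48.9 TPM, SD, n = 3 each), by -2.83 ± 0.50 (limma, adjusted p = 0.00718), and so was Chrdl2, by -2.86 ± 0.26 (4.02e-07). These 2 of 8 stand beside 0.781% of all genes called lower, or 1 of 7 without Chrdl2. Frzb held 17.4 ± 5.79 TPM at high and 72.8 ± 8.11 TPM at low density with no overlap, but its difference of -2.06 was not called (adjusted p = 0.0665). In total 6 of the 8 did not overlap between the densities of S510L, as did 26.5% of all genes. None was called in D325H (4.11% of all genes), F428D (1.04%), WT (0%) or EV (0.0781%). At an unadjusted p under 0.05 the 8 genes counted 5 in S510L (16.8% of all genes), Chrdl2 among them, and 2 in D325H (23%). They counted 0 in F428D (18.4%), 0 in WT (4.78%, or 673 genes) and 1 in EV (6.95%). The Grem1 call was lost without S510L low 1 (0.0508), S510L low 2 (0.0616) or S510L high 2 (0.0546).

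Whether the effect of S510L differed between densities was tested as a difference of differences. For S510L minus WT, high minus low, Chrdl2 was called at -2.94 ± 0.37 (limma, adjusted p = 0.000201), in a comparison with 0.0355% of all genes called lower. As Chrdl2 passed the filter only through S510L low and a D325H low library, that share is no measure for it. It was lost with a pseudocount of 0.1 (0.0529) and in a fit of the 4 groups alone (0.167), and of the other 7 genes 0 were called. Grem1 was at -3.44 ± 0.71 (adjusted p = 0.0766), and the remaining 6 had adjusted p of 0.508 or more. Hence for Frzb and Nog, no difference of the S510L effect between densities was called. All 8 differences were negative, with a median of -1.52 against 0.0524 over all genes (also -1.52 without Chrdl2). At an unadjusted p under 0.05 there were 4 of the 8, Chrdl2 among them, beside 9.1% of all genes. The same test gave 0 called antagonists for WT minus EV (0%), D325H minus WT (0%) and F428D minus WT (0.0355%), with 1 (2.39% of all genes), 1 (6.48%) and 0 (3.51%) of the 8 at an unadjusted p under 0.05. The negative sign was not particular to S510L. All 8 were also negative for D325H minus WT (median -0.743 against -0.00257 over all genes). For F428D minus WT 7 were negative, and for WT minus EV 1 was. These tests share the WT libraries, in which 7 of the 8 were higher at high density, none of them called.

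Across the 30 libraries some of the antagonists varied together, described here by Pearson's r of log2(TPM + 1). The points share constructs and density, so r carries no p. The pair Nog and Frzb reached r = 0.84 (0.67 over the 27 libraries without S510L low), Chrdl2 and Frzb 0.82 (0.69), Grem1 and Chrdl2 0.79 (0.57) and Grem1 and Nog 0.78 (0.55). Sfrp2 went most closely with Chrdl1, at 0.66 (0.68). Without S510L low, Grem1 went as closely with Sfrp2 (0.60) as with Chrdl2, Nog or Frzb (0.54 to 0.57), and Chrdl2 more closely with Chrdl1 (0.56) than with Nog (0.45).

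Among 11386 named genes with a mean of at least 1 TPM, the ones most like Frzb were Matn3, a cartilage matrilin (r = 0.98), Papss2, which makes the sulfate donor (0.95), and Cd200 (0.95). For Grem1 they were Fxyd7 (0.90), Gprc5c (0.89) and Fxyd1 (0.88), for Nog Zfp385b (0.87), Mcu (0.87) and Nrxn2 (0.86), and for Chrdl2 Nrk (0.92), Fam104a (0.91) and Sox8 (0.91). Without the S510L low libraries Chrdl2 and Fam104a fell apart (0.56), whereas Frzb and Matn3 did not (0.96). Chrdl1 was closest to Bnip3 (0.91), Ube2g1 (0.90) and Stat5b (0.88), and Sfrp2 to C1s1, a complement protease (0.95), Il11ra1 (0.95) and Sntb1 (0.95). Sfrp1 was most like C1galt1 (0.88), Osmr (0.85) and Cebpd (0.85), and Dkk3 most like Tuba1a (0.84), Dctn6 (0.84) and Flii (0.83).

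The rest of the BMP pathway was read from lists of ligands, receptors, SMADs, target genes and other antagonists. Their counts at low density stand beside 15.0% of all genes called higher and 8.3% lower with S510L, and 14.8% higher and 14.1% lower with D325H. Against WT at low density, S510L had 4 of 5 tested BMP ligands called higher and 0 lower, and D325H 1 higher. The S510L count of higher ligands was 3 to 4 without 1 library, 3 in a fit of the 6 libraries alone and 0 to 4 over the alternative settings. The D325H count ran from 0 to 2 over those settings. Bmp6 stood at 10.7, 14.6 and 14.1 TPM in S510L low and 3.15, 4.50 and 2.25 TPM in D325H low, against 0.14 to 0.26 TPM in WT low (3.56 and 1.83, limma adjusted p = 1.45e-07 and 0.000303). Bmp2 rose with S510L by 2.02 (adjusted p = 2.21e-05) and Gdf5, a ligand of joint formation, by 1.23 (0.000109). Of 11 BMP target genes, 5 were lower and 2 higher with S510L (median -0.651), and 5 lower and 1 higher with D325H (median -0.633). Against EV low the counts were 0 and 0 with S510L (median -0.314) and 4 lower and 1 higher with D325H (median -0.296). At high density against WT they were 0 lower and 1 higher with S510L (median -0.0148) and 1 and 1 with D325H (median -0.600). Id2, an inhibitor of basic helix-loop-helix factors, held 58.2, 60.5 and 85.5 TPM in S510L low, against 184, 129 and 153 TPM in WT low (-1.18, limma adjusted p = 0.00419). Smad7 and Smad6, inhibitory SMADs counted among both the SMADs and the targets, were lower with S510L (-0.92, 0.00798 and -0.39, 0.0234). The Smad6 call was lost without WT low 1 (0.156) or S510L low 2 (0.136). Id3 was lower with D325H (-1.12, 0.00249). Msx1, a limb and neural crest homeobox factor, went the other way with D325H (1.62, 0.000334). Leaving out 1 library moved the count of lower targets between 2 and 6 for S510L and between 4 and 7 for D325H, and in a fit of the 6 libraries alone the counts were 2 for S510L and 0 for D325H.

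Of 8 tested genes on the list of other BMP antagonists, D325H had 3 higher and 0 lower than WT at low density, led by Kcp (1.34, limma adjusted p = 0.00435), which binds BMPs through chordin-type repeats. Kcp held 7.67, 7.19 and 3.45 TPM in D325H low, against 1.70, 2.60 and 1.02 TPM in WT low, without overlap. The count was 1 to 3 without 1 library and 0 in a fit of the 6 libraries alone, where Kcp was at 0.0943. Among 8 tested BMP receptors and co-receptors, Rgma was higher with both, by 1.31 with S510L (0.000457) and 1.25 with D325H (0.000764). The receptor counts were 2 higher and 1 lower with S510L and 3 higher and 0 lower with D325H. Without 1 library they were 1 to 2 higher and 0 lower with S510L and 1 to 3 higher with D325H, and the 6 libraries alone gave 0 with D325H. Of 6 SMADs, S510L had 1 higher and 2 lower (0 to 1 and 1 to 3 without 1 library), and D325H had 1 higher and 1 lower (0 to 1 and 0 to 2). The 2 lower with S510L were Smad6 and Smad7, already counted among the targets.

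On the WNT side, D325H had 10 of 14 tested genes of the receptor list higher than WT and 0 lower at low density (median 0.743). S510L had 6 higher and 0 lower (median 0.593). These stand beside 14.8% (D325H) and 15.0% (S510L) of all genes called higher. The 10 include Kremen1, which encodes a receptor of Dickkopf proteins and not of WNTs (0.43, limma adjusted p = 0.0336). Against EV low the counts were 7 higher with D325H and 5 with S510L, and 0 lower with either. Fzd2, a Frizzled receptor, held 182, 146 and 100 TPM in D325H low and 189, 159 and 127 TPM in S510L low, against 51.4, 59.6 and 43.0 TPM in WT low (1.43 and 1.60, limma adjusted p = 8.07e-05 and 1.25e-05). Fzd9 rose with S510L by 3.44 (2.93e-05), and Fzd4 with D325H by 2.09 (0.000409). In a fit of the 6 libraries alone the counts were 1 with D325H and 5 with S510L. Of 9 tested WNT ligands 1 was higher with S510L, Wnt6 (1.02, 0.00274), and none with D325H. Of 8 WNT target genes S510L had 1 higher and 1 lower, and D325H 2 and 2, where 8.3% and 14.1% of all genes were called lower. Without 1 library these were 1 higher and 0 to 1 lower with S510L and 1 to 2 of each with D325H, and the 6 libraries alone gave 0 of each with D325H. Nkd1, a feedback inhibitor, was higher with S510L (2.33, 0.00287) and D325H (2.91, 0.000461), and Notum, a secreted WNT-inactivating enzyme, was lower with S510L (-1.66, 0.0106) and D325H (-1.76, 0.00618). Its call was lost without WT low 1 for S510L (0.0848) and for D325H (0.0557), without S510L low 2 (0.0709) and without D325H low 1 (0.0574). Ccnd1, the cyclin D1 gene, was lower with D325H (-1.82, 0.000207). Notum was also the 1 gene called, lower with both, of the 3 tested other WNT antagonists. Of 6 genes of the R-spondin axis, which raises WNT receptor levels, S510L had 1 higher and 2 lower and D325H 2 higher and 1 lower (0 to 2 and 0 to 1 without 1 library).

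**Figure D4:**
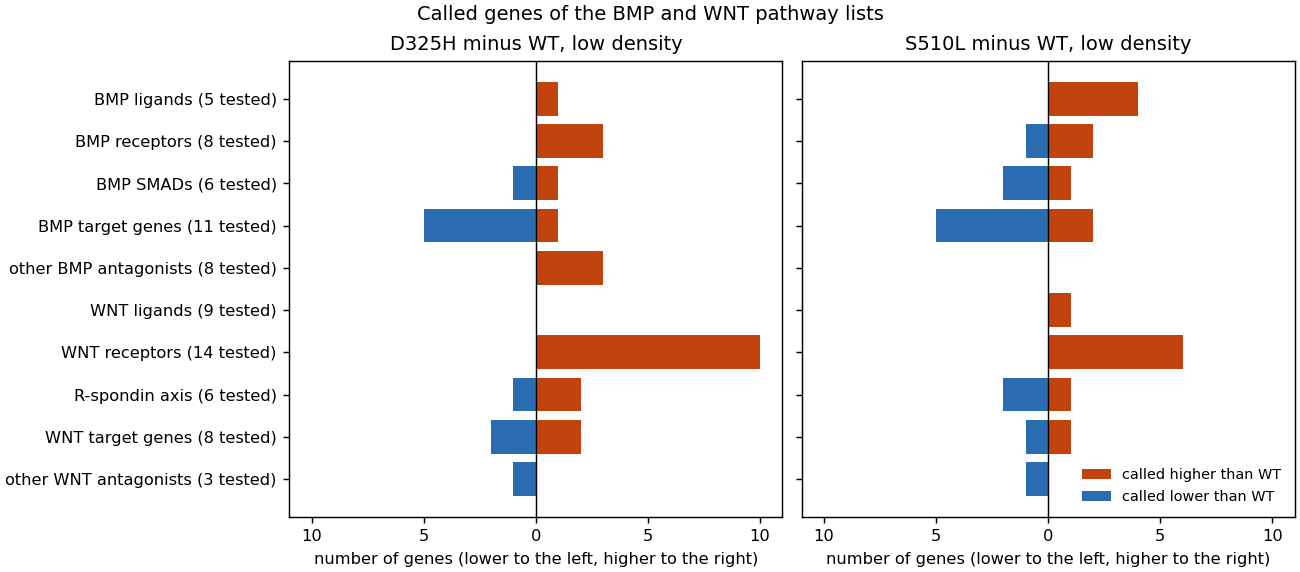
Number of genes of each BMP or WNT pathway list called lower (left of 0) or higher (right of 0) than WT at low density, for D325H (left panel) and S510L (right panel); the number tested is beside each list name. BMP ligands (4 of 5 with S510L) and WNT receptors (10 of 14 with D325H) extend to the right, and BMP target genes extend mostly to the left (5 with either variant).

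At high density most of the same lists held fewer calls against WT. An exception was the WNT target genes with S510L, with 2 higher and 1 lower, against 1 and 1 at low density. With S510L, 3 of 5 BMP ligands were higher (7.39% of all genes), led by Bmp6 (2.54, limma adjusted p = 4.97e-05). S510L also had 3 of 14 WNT receptors higher, Fzd9 (3.24, 0.000291), Ryk (0.53, 0.0135) and Fzd2 (0.83, 0.0156), or 2 to 3 without 1 library. Notum was lower with S510L (-1.48, 0.0434), a call lost without any 1 of the 6 libraries (0.0794 to 0.137). The ligand count was 1 or 2 whichever library was left out, while Bmp6 and Fzd9 stayed called. With D325H, 3 of 14 WNT receptors were higher (5.46% of all genes), led by Fzd2 (0.93, 0.00894), and Ccnd1 (-1.30, 0.0104) and Notum (-1.82, 0.0144) were lower. Without D325H high 2 none of the 3 receptors was called (Fzd2 at 0.0848), nor Ccnd1 (0.0974) or Notum (0.108), and Notum was also lost without WT high 1 (0.0614) or WT high 3 (0.0569). On the BMP side, Msx1 was higher with D325H (1.501, limma adjusted p = 0.00316), a call kept without any 1 library. Msx2, called lower, and Rgma, called higher, lost their calls without D325H high 2 (0.0668 and 0.14). F428D had no gene called in any of the 10 lists at either density. WT differed from EV by 1 list gene, Bmp6 at low density (-1.52, adjusted p = 0.0415), which was lost in 5 of the alternative settings (0.0527 to 0.651) and without any 1 of 5 libraries (0.0649 to 0.38).

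Markers of cartilage moved with several of the antagonists. The sum of 8 cartilage genes (Col2a1, Acan, Sox9, Col9a1, Matn1, Hapln1, Cnmd and Comp) was 5822 to 6442 TPM in S510L low, 1021 to 1700 TPM in D325H low, 957 to 1673 TPM in F428D low, 335 to 742 TPM in WT low and 1158 to 2342 TPM in EV low. At high density it was 1610 to 2568 TPM in S510L, and no library of the other high-density groups passed 511 TPM. All 8 were called higher with S510L than with WT at low density (15.0% of all genes) and at high density (7.39%). With D325H at low density 6 were higher (14.8%), and 5 were lower in WT low than in EV low (0.291%). Without 1 library the WT low count was 0 to 6, and the S510L high count 6 to 8. In a fit of only the groups compared, the WT low count was 1 and the D325H low count 3. The EV low libraries, with more marker RNA than WT low, also held more Frzb in 2 of 3 libraries than any WT library. D325H low and F428D low had more marker RNA than WT low as well. Their Frzb was 4.09 to 10.1 TPM in D325H low but 5.87, 0.849 and 0.523 TPM in F428D low, against 0.745 to 2.34 TPM in WT low. Over the 30 libraries the log2 sum had r = 0.90 with Frzb, 0.76 with Chrdl2, 0.76 with Nog and 0.59 with Grem1, and without S510L low r was 0.80, 0.64, 0.55 and 0.24. Over the 30 libraries r was 0.55 with Chrdl1, 0.30 with Dkk3, 0.15 with Sfrp1 and 0.07 with Sfrp2. Without S510L low these values were 0.31, 0.28, 0.27 and -0.08. Grem1, at 0.24, then lay below Chrdl1, Dkk3 and Sfrp1. The part of the cartilage genes in these differences was not tested.

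**Figure D5:**
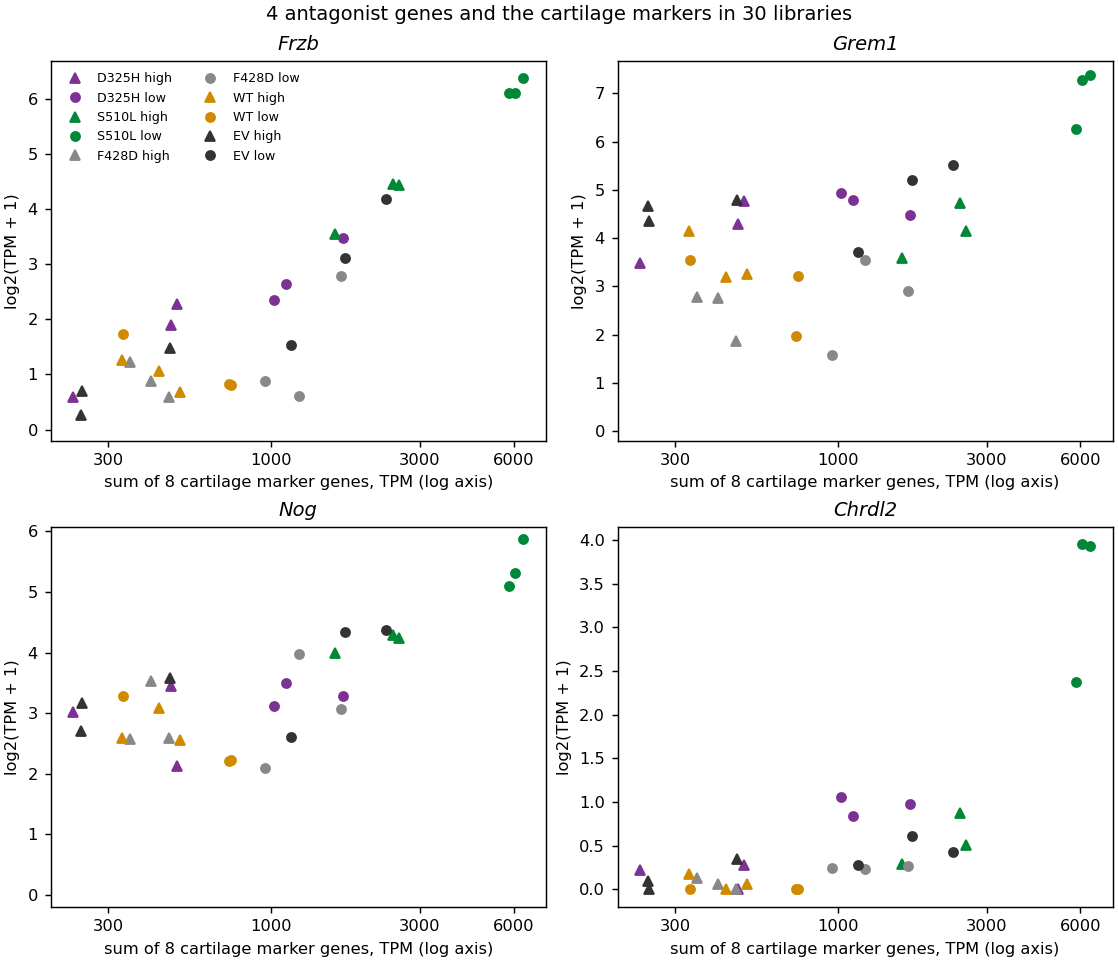
Level of Frzb, Grem1, Nog and Chrdl2 as log2(TPM + 1) on the vertical axes against the summed TPM of 8 cartilage marker genes (log axis); each point is 1 library, coloured by construct, triangles for high and circles for low density. The 3 S510L low libraries lie at the upper right of every panel, at 5822 to 6442 TPM of marker RNA, and Frzb follows the marker sum most closely (r = 0.90).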

How the data were processed

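Per the labels' protocols, total RNA from 30 libraries was read on a BGISEQ-500 as 50 nt single-end reads, 20 M per library as stated. The authors deposited 1 table of TPM, made with kallisto and the assembly GRCh37.p13 per the submitters' processing notes. That assembly is human, yet 34095 of 34724 symbols are mouse gene names, so the transcript set behind the values is uncertain. Columns were matched to samples by number, and no 2 libraries were identical.

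Group means of log2(TPM + 1) over all 30 libraries were fitted in limma 3.58.1 under R 4.3.3, with a variance trend, for 14093 genes at 1 TPM or more in at least 3 libraries. Genes with a Benjamini-Hochberg (BH) adjusted p under 0.05 over all tested genes were called, and the method was tested on simulated data. Contrasts with the same control are not independent. Named are the 9 genes, up to 3 called genes of smallest p per pathway list and comparison, and the 3 genes of highest correlation with each. The 9 genes, the lists and the comparisons were chosen with earlier results of these data known. The alternative settings used other pseudocounts (0.1 or 5), dropped the filter or set it at a mean of 5 TPM, and tried quantile and median-ratio scaling, a replicate block, a fit of only the groups compared, and leaving out each library. 1 gene of the list of other BMP antagonists is not reported here and is not counted in it.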

Additional observations from a re-analysis of the deposited data

Results flagged for a closer look

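Chrdl2 was flagged because the S510L effect differed between densities in the test of the difference itself. The S510L minus WT difference was smaller at high density by -2.94 ± 0.37 in log2(TPM + 1) (limma, BH-adjusted p = 0.000201). S510L held 0.421, 0.217 and 0.827 TPM at high density and 14.4, 14.2 and 4.18 TPM at low density. WT held 0, 0.127 and 0.0465 TPM at high density and was listed at 0 in all 3 low-density libraries. Chrdl2 reached 1 TPM in 4 libraries, 3 of them S510L low, so it was tested only because it was high there. The call was lost with a pseudocount of 0.1 (adjusted p = 0.0529) and in a fit of the 4 groups alone (0.167). The cause was not tested.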

How the results depend on the processing

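Of 43 called differences of the 9 genes, 0 reversed under any alternative, and 19 kept their call under every alternative setting in which they were tested. Without any 1 library 25 kept it, and 16 did in both. Those of Chrdl2 are in these counts though the filter at a mean of 5 TPM left that gene untested, with 7 settings in place of 8. Replicate numbers did not pair the libraries: in 0 of 45 pairs of groups did every same-numbered pair correlate above 0.1. With the replicate block the count of called genes was 2 for D325H low against EV low and for D325H high against WT high (1 each without it) and 4 for S510L high against F428D high (2 without it). Fitting only the groups compared gave 1 in place of 5 for D325H low against WT low, 0 in place of 1 against EV low and 0 in place of 3 against F428D low. It gave 2 in place of 4 for S510L low against EV low, 3 in place of 6 against F428D low, and at high density 3 in place of 1 against EV and 4 in place of 2 against F428D. For F428D high against EV high it gave 2 in place of 1, for D325H high against F428D high 0 in place of 2, and for S510L high against low, 0 in place of 2. Fewer libraries then set the spread.

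S510L high against WT high gave 1 in place of 2 with a pseudocount of 0.1, without the filter, and with quantile or median-ratio scaling. Against F428D high it gave 1 in place of 2 without the filter and with either scaling. Quantile and median-ratio scaling gave 2 in place of 1 for D325H low against EV low. F428D high against EV high gave 0 without the filter or with quantile scaling, D325H high against F428D high gave 1 without the filter, and D325H high against low gave 1 in place of 0 with a pseudocount of 0.1. The filter at a mean of 5 TPM removed Chrdl2, which left 1 for S510L high against low and 0 for the S510L difference between densities. That last count was 0 with a pseudocount of 0.1, 2 with 5, and 0 in a fit of its groups alone. Unless named, the cause was not tested.

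Leaving out 1 library moved the counts between 0 and 2 (WT low against EV low), 3 and 5 (D325H low against WT low), 0 and 2 (D325H low against EV low), 0 and 1 (F428D low against EV low) and 1 and 5 (D325H low against F428D low). At high density the counts lay between 0 and 1 for D325H against WT, 1 and 1 for S510L against WT, 0 and 1 for F428D against EV, 1 and 2 for S510L against D325H, 1 and 3 for S510L against F428D and 0 and 2 for D325H against F428D. High against low density gave 0 to 1 in EV and 1 to 2 in S510L, and the S510L difference between densities 1 to 2. Scaling moved the median of all genes by over 0.1 for S510L high against F428D high (0.156, or 0.011 with quantile normalization) and F428D high against low (-0.114, or -0.001). Without read depth, counting error is unknown, and Dkk2 and Chrdl2 lie where it matters most.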
